A study of Mus musculus with 16 samples.

Results

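Hair follicle growth and cycle regulators were followed in mouse skin through 10 genes. They were chosen by symbol, as the rows of the count files named Lef1, Hoxc13, Msx2, Foxn1, Dlx3, Shh, Gata3, Fgf5, Lgr5 and Padi3, out of 23238 gene symbols in all. All 10 were in the files and all 10 were among the 14854 rows with enough counts to be tested. The study asked what a diet low in ligands of the aryl hydrocarbon receptor (AhR), repeated application of the sensitiser 2,4-dinitrochlorobenzene (DNCB) and the herbal extract Bojungikgi-tang (BJIKT) do to the skin. Skin from 16 wild-type male C57BL/6N mice was sequenced with a QuantSeq kit, which reads the 3′ end of messenger RNA, with 4 libraries in each of 4 groups.

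All mice were bought at 3 weeks of age and given 1 week to adapt. The Cont mice ate normal chow with no DNCB and no extract. The LowAhR mice were kept on the low ligand diet for 12 weeks, with paper bedding free of these ligands. The LowAhR+AD mice had the same diet and bedding, and 1% DNCB in acetone and olive oil was put on their back skin 2 times a week after the first 2 weeks, to set up an atopic dermatitis (AD) model. The LowAhR+AD+BJ mice had the diet, the bedding and DNCB, and took BJIKT daily by gavage at 1 g/kg from the start of DNCB. No group received DNCB on normal chow, so the effects of DNCB and of the diet under DNCB cannot be told apart in a comparison with Cont. The diet and the paper bedding were given together, so their effects cannot be told apart either. The paper describes no acetone and olive oil on the skin of mice without DNCB, so DNCB and its solvent also go together.

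A hair follicle passes through growth (anagen), regression (catagen) and rest (telogen). In growth, matrix cells at the base of the follicle divide around the dermal papilla and become the hair shaft and the inner root sheath, and most regulators of these layers are made at that stage. Lef1 is the DNA-binding partner of β-catenin in the matrix and the cells that form the cortex. Hoxc13 and Foxn1 are transcription factors needed for hair keratin production and a normal shaft, Msx2 is a homeobox factor of the matrix, and Dlx3 is a homeobox factor of the matrix and inner root sheath that is also made in upper epidermis. Gata3 directs the inner root sheath and is also made in interfollicular epidermis and in T cells and group 2 innate lymphoid cells. Shh is a secreted signal of the matrix that drives the growth of the follicle, and Fgf5 is a secreted signal of the outer root sheath that ends growth. Lgr5 is a receptor for R-spondins that marks stem cells of the lower bulge and hair germ. Padi3 is not a regulator of transcription: it is an enzyme that converts arginine to citrulline in proteins such as trichohyalin in the inner root sheath and medulla.

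The deposited genome notes name build mm10, and the genes were located on the GRCm38.p6 annotation of that build. The members lay on 8 chromosomes, from Gata3 at chr2:9857078-9887953 to Hoxc13 at chr15:102921131-102928814, and no other annotated gene overlapped the last 1000 bases of any of them, where 3′ reads fall. Gata3 overlapped 3 genes elsewhere in its span, Lef1 and Shh 2 each and Lgr5 1. RefSeq gave the 250 bases before 1 start of transcription for 6 of the 10 members, namely Lef1, Msx2, Foxn1, Gata3, Fgf5 and Padi3. For Gata3 and Foxn1 that start lay 9353 and 175 bases inside the span of the gene, so the windows shown are not the most upstream ones, and for the other 4 it was the upstream end of the span. The promoters of Foxn1, Lef1 and Padi3 are shown because the libraries of LowAhR+AD lay above those of both LowAhR and Cont in these genes, and that of Gata3 because it was the only member that fell in any comparison. They are given 5′ to 3′ on the strand of the gene in build GRCm38.p6, and capitals mark matches to 6 motifs searched on both strands. The core bound by Lef1 and Tcf factors was read as CTTTGA, the core of homeodomain factors as TAATTA, that of Foxn1 as GACGC and that of GATA factors as AGATAA. The CCAAT box was searched by its own letters, and TATAAA stood for the other basal element, the TATA box.
Padi3, chr4:140810649-140810898, minus strand: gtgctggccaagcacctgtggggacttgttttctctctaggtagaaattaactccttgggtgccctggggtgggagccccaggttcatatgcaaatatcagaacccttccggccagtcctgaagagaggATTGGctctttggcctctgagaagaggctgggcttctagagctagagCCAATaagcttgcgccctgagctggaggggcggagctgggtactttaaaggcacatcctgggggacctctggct
Foxn1, chr11:78386609-78386858, minus strand: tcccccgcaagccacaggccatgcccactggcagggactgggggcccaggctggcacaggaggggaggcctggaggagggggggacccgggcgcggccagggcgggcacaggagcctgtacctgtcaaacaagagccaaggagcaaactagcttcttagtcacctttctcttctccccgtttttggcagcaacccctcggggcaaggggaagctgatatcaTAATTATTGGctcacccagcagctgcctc
Lef1, chr3:131110047-131110296, plus strand: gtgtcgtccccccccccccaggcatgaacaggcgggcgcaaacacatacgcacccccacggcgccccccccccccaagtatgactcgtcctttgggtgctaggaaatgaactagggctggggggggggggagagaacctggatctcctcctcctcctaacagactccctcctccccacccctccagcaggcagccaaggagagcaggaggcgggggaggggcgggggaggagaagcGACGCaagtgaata
Gata3, chr2:9878601-9878850, minus strand: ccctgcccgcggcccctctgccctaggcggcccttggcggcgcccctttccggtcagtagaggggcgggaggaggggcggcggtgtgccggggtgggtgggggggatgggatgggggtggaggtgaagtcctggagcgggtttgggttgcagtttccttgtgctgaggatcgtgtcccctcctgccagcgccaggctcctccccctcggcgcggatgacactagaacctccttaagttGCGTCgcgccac

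The Padi3 window held CCAAT in both orientations, 121 and 74 bases before the start. The Foxn1 window held a homeodomain core 29 bases before the start that shared 1 base with a CCAAT box on the other strand. A Foxn1 core stood 14 bases before the start in Lef1 and 12 bases before it in Gata3, and none of the 4 windows held a TATA box, a Lef1 and Tcf core or a GATA core. Of 27025 promoter windows of the same length, 34.5% held a CCAAT box, 4.90% a homeodomain core, 22.6% a Foxn1 core, 12.97% a TATA box, 14.1% a Lef1 and Tcf core and 10.3% a GATA core. A match describes the letters only, and the annotated antisense transcripts Gm43352 and Gm13256 overlap the windows of Lef1 and Gata3.

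The libraries held 7080508 to 13467477 counts, and the totals of the LowAhR+AD and LowAhR+AD+BJ libraries (10614393 or more) all lay above those of the other groups. LowAhR+AD replicate 1 had no count for 38.2% of genes predicted at 20 to 40 counts from the other libraries, against at most 13.6% in each of the other 15 libraries, and LowAhR replicate 4 was the highest of its group in 7 of the 10 members. Both libraries stand apart for the members, so the results that rest on them are also given without them. The skin was recognisable by its epidermal keratins: the summed level of 8 basal and suprabasal genes, Krt5 and Krt14 among them, was 6657 to 8511 CPM (counts scaled to the same library total after TMM factors, edgeR's trimmed mean scaling) in Cont and 7949 to 15513 CPM in LowAhR+AD. In whole skin, fewer cells of a type and less RNA per cell cannot be told apart. The labels do not say that replicates of a group share a litter or cage. The edgeR p-values rest on the spread between libraries within groups. It was estimated for each gene over all 16 libraries together and drawn towards that of other genes.

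**Figure D1:**
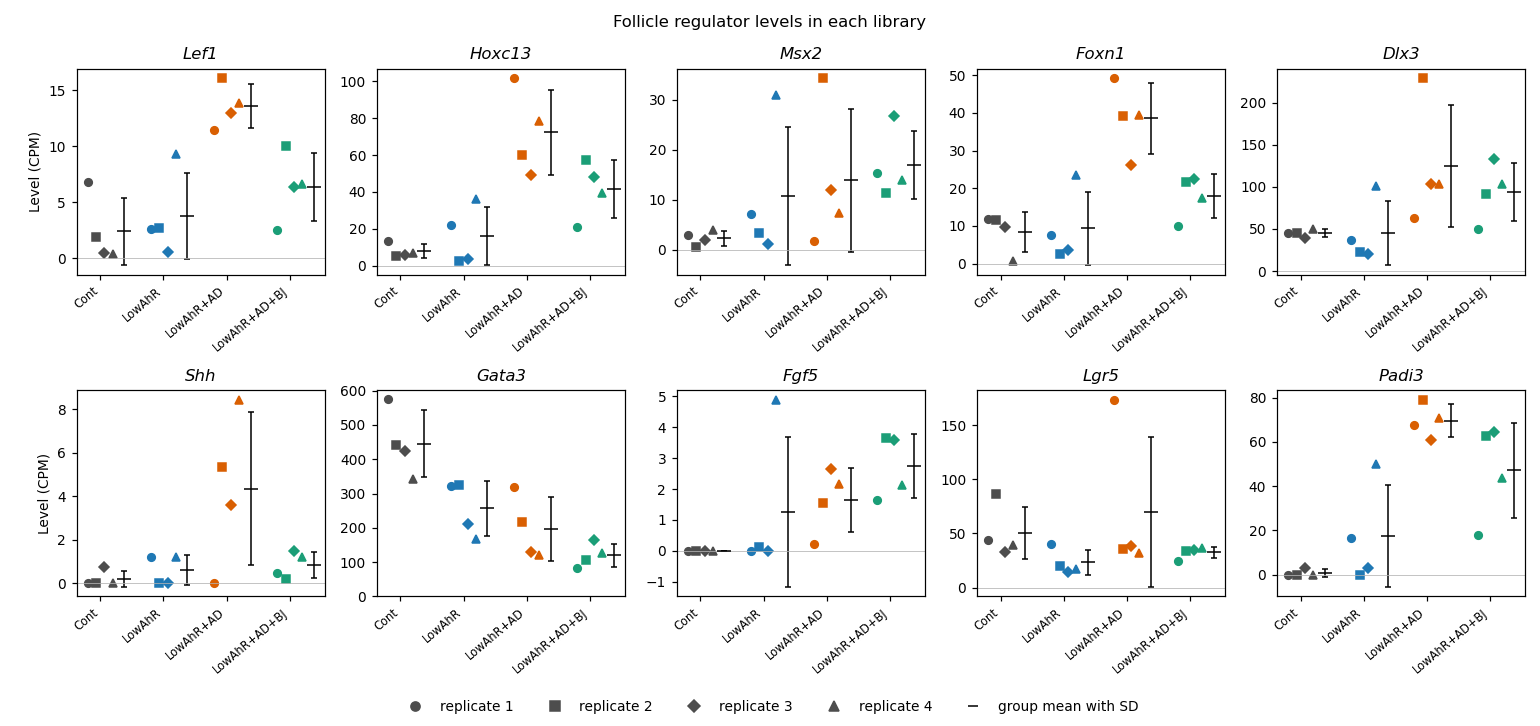
Level of each of the 10 genes (CPM, linear axis from 0) in every library, by group, with a symbol for each replicate number and the group mean with its SD in black. The LowAhR+AD libraries sit above all LowAhR and all Cont libraries in Lef1, Hoxc13, Foxn1 and Padi3, and Gata3 is highest in Cont.

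Of the 5 transcription factors of the matrix, 4 rose in LowAhR+AD against Cont (Hoxc13, Lef1, Foxn1 and Dlx3, where 12.3% of all 14854 rows were called higher) and 2 of these also against LowAhR (Hoxc13 and Dlx3, where 6.42% were). Hoxc13, which switches on hair keratin genes, had 13.5, 5.43, 5.92 and 6.70 CPM in the 4 Cont libraries and 21.9, 2.69, 3.77 and 35.9 CPM in LowAhR, in order of replicate number 1 to 4. With DNCB it had 102, 59.98, 49.3 and 78.5 CPM in LowAhR+AD and 20.99, 57.5, 48.2 and 39.6 CPM in LowAhR+AD+BJ. Every LowAhR+AD library was above every LowAhR and every Cont library, and the lowest LowAhR+AD+BJ library was below LowAhR replicates 1 and 4. Hoxc13 was higher in LowAhR+AD than in LowAhR by a log2 fold change of 2.17 (SE 0.60, edgeR adjusted p = 0.0246), and higher than in Cont by 3.20 (SE 0.63, edgeR adjusted p = 0.00190). The first of these calls was lost in 2 of 16 fits that left out 1 library, those without LowAhR replicates 2 and 3 (log2 fold change 1.81 to 1.85), and the second in none.

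Lef1, the β-catenin partner, had 6.80, 1.94, 0.494 and 0.359 CPM in the Cont libraries and 2.57, 2.69, 0.520 and 9.31 in the LowAhR libraries. It had 11.4, 16.1, 12.98 and 13.8 CPM in LowAhR+AD and 2.56, 9.98, 6.38 and 6.66 CPM in LowAhR+AD+BJ. The LowAhR+AD libraries were the 4 highest of all 16, with no overlap with any other group. Against LowAhR the log2 fold change was 1.84 (SE 0.82, edgeR adjusted p = 0.148), which missed the threshold although the groups did not overlap (exact permutation p = 0.0286, the smallest that 4 against 4 libraries can give). Against Cont Lef1 rose by 2.50 (SE 0.84, edgeR adjusted p = 0.0406). Without LowAhR replicate 4, the highest of its group at 9.31 CPM, the change against LowAhR was 2.81 and passed (edgeR adjusted p = 0.0462), while the call against Cont was lost without Cont replicates 2, 3 and 4 and LowAhR+AD replicates 2, 3 and 4 (log2 fold change 2.14 to 2.52).

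Foxn1, whose loss gives the nude mouse, had 11.9, 11.6, 9.75 and 0.599 CPM in the Cont libraries and 7.58, 2.43, 3.64 and 23.6 in the LowAhR libraries. Levels of 49.3, 39.1, 26.3 and 39.4 CPM were measured in LowAhR+AD and 10.04, 21.8, 22.6 and 17.4 CPM in LowAhR+AD+BJ. As with Lef1, the 4 LowAhR+AD libraries were the highest of the 16. The change against LowAhR was 2.04 (SE 0.68, edgeR adjusted p = 0.0550) on the log2 scale, just outside the threshold, with groups that did not overlap (exact permutation p = 0.0286). Against Cont Foxn1 rose by 2.18 (SE 0.68, edgeR adjusted p = 0.0283), a call that was lost without Cont replicate 3 and LowAhR+AD replicate 4 (log2 fold change 2.18 to 2.27). The change against LowAhR passed without Cont replicate 4 (2.04) and without LowAhR replicate 4, where it was 3.08 (edgeR adjusted p = 0.00784).

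Dlx3, the homeobox factor shared with upper epidermis, had 44.9, 45.5, 39.2 and 50.2 CPM in the Cont libraries and 36.7, 22.7, 19.8 and 101 in the LowAhR libraries. In the DNCB groups it had 62.5, 229, 103 and 104 CPM in LowAhR+AD and 49.6, 91.7, 133 and 104 CPM in LowAhR+AD+BJ. The Cont libraries lay close together, LowAhR+AD replicate 2 was the highest of all, and LowAhR replicate 4 overlapped the LowAhR+AD range. Dlx3 rose in LowAhR+AD by 1.46 (SE 0.46, edgeR adjusted p = 0.0454) against LowAhR and by 1.47 (SE 0.46, edgeR adjusted p = 0.0299) against Cont. The first call was close to the threshold and was lost in 11 of 16 fits that left out 1 library, those without Cont replicates 1, 2, 3 and 4, LowAhR replicates 1, 2 and 3, LowAhR+AD replicates 2 and 4 and LowAhR+AD+BJ replicates 2 and 4 (log2 fold change 1.00 to 1.54). The second was lost without Cont replicates 1, 2, 3 and 4 and LowAhR+AD replicate 2 (log2 fold change 1.00 to 1.53).

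Msx2, the other homeobox factor of the matrix, did not pass in any comparison with edgeR. Its levels were 2.95, 0.517, 1.85 and 3.95 CPM in Cont, 7.17, 3.33, 1.17 and 31.03 CPM in LowAhR, 1.68, 34.4, 11.97 and 7.39 CPM in LowAhR+AD and 15.4, 11.4, 26.8 and 13.9 CPM in LowAhR+AD+BJ. LowAhR replicate 4 and LowAhR+AD replicate 2 were far above the rest of their groups, and LowAhR+AD replicate 1 was as low as Cont, while the 4 LowAhR+AD+BJ libraries were all above the 4 Cont libraries. The log2 fold change of LowAhR+AD against Cont was 2.57 (SE 0.91, edgeR adjusted p = 0.0507), and it passed without LowAhR+AD replicate 1, at 2.94, and without LowAhR replicates 2, 3 and 4 (2.57 to 2.59). DESeq2 called it in that comparison (adjusted p = 0.0120). Against LowAhR the log2 fold change was 0.37 (SE 0.84, edgeR adjusted p = 0.819).

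Gata3 was the only member with a negative log2 fold change in LowAhR+AD against both Cont and LowAhR with all libraries in the fit. The inner root sheath factor had 577, 441, 423 and 342 CPM in the Cont libraries and 323, 325, 212 and 166 in the LowAhR libraries. It had 320.1, 216, 131 and 119 CPM in LowAhR+AD and 83.96, 106, 164 and 126 CPM in LowAhR+AD+BJ. Every library of the 3 groups on the low ligand diet was below every Cont library, and every LowAhR+AD+BJ library was below every LowAhR library. Gata3 fell in LowAhR+AD against Cont, with a log2 fold change of -1.18 (SE 0.32, edgeR adjusted p = 0.0136), and this call held in all 16 fits that left out 1 library. It also fell in LowAhR+AD+BJ against LowAhR, with -1.10 (SE 0.32, edgeR adjusted p = 0.0461), a call at the edge of the threshold that was lost in 10 of 16 such fits, those without Cont replicates 2, 3 and 4, LowAhR replicates 1, 2 and 3, LowAhR+AD replicate 2 and LowAhR+AD+BJ replicates 1, 2 and 4 (log2 fold change -1.18 to -0.96). In LowAhR against Cont the change of -0.79 (SE 0.32, edgeR adjusted p = 0.258) did not pass, although the libraries did not overlap (exact permutation p = 0.0286). In LowAhR+AD against LowAhR it was -0.38 (SE 0.32, edgeR adjusted p = 0.459), with groups that overlapped.

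Genes of lymphocytes, which also make Gata3, moved beside it in part. The summed level of 8 group 2 lymphoid and type 2 genes was 860.3 to 978 CPM in Cont, 396 to 616 in LowAhR, 132 to 289 in LowAhR+AD and 233 to 263 in LowAhR+AD+BJ. Most of that sum was Rora, a nuclear receptor made in many cell types, whose mean was 876 ± 53.7 CPM (SD, n = 4) in Cont and 169.6 ± 66.7 CPM (SD, n = 4) in LowAhR+AD. Of 11 T cell genes in the files, Cd3e and Cd3g were lower in LowAhR+AD than in Cont and none was called higher. The median log2 fold change of these genes was -1.92. Their summed level, which the most abundant genes weigh most, was 214 to 298 CPM in Cont and 207 to 306 CPM in LowAhR+AD. The part of lymphocytes in the change of Gata3 was not tested.

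The signals were the least abundant members. Shh had counts in 1 of 4 Cont and 2 of 4 LowAhR libraries, with 0, 0, 0.740 and 0 CPM and 1.22, 0, 0 and 1.19 CPM. In LowAhR+AD it had 0, 5.33, 3.58 and 8.43 CPM and in LowAhR+AD+BJ 0.456, 0.204, 1.48 and 1.21 CPM. Replicates 2, 3 and 4 of LowAhR+AD were the highest of all 16, while replicate 1, the library with many missing counts, had none, which allows up to 3 counts or 0.229 CPM. No comparison passed in edgeR, and the largest change, LowAhR+AD against Cont, was 4.45 (SE 1.78, edgeR adjusted p = 0.0821) on the log2 scale. It was 4.85 and passed without LowAhR+AD replicate 1 (edgeR adjusted p = 0.0368), and it also passed without Cont replicate 3, the only Cont library with Shh counts, after which the fitted value is no measure of size. DESeq2 called Shh in that comparison (adjusted p = 0.0267). Against LowAhR the log2 fold change was 2.82 (SE 1.62, edgeR adjusted p = 0.269).

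Fgf5, the signal that ends growth, had no count in any Cont library, which allows up to 3 counts a library (0.359 to 0.388 CPM, a limit that covers counting error only). It had 0, 0.128, 0 and 4.89 CPM in LowAhR, 0.229, 1.56, 2.64 and 2.17 CPM in LowAhR+AD and 1.64, 3.67, 3.58 and 2.12 CPM in LowAhR+AD+BJ. All 8 libraries with DNCB had Fgf5 counts, against 2 of the 4 LowAhR libraries, of which replicate 4 was the highest of all 16. Its mean in LowAhR+AD was at least 4.39-fold higher than the mean limit in Cont, and Fgf5 rose in that comparison (edgeR adjusted p = 0.0282), a call lost without any 1 of the 4 Cont libraries. Against LowAhR the log2 fold change was 0.38 (SE 1.42, edgeR adjusted p = 0.894), and without LowAhR replicate 4 it was 4.90 (edgeR adjusted p = 0.0650).

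Lgr5 had 43.8, 86.4, 32.6 and 39.7 CPM in the Cont libraries and 40.7, 20.4, 14.6 and 17.1 in the LowAhR libraries. In LowAhR+AD it had 174, 35.4, 38.5 and 31.6 CPM and in LowAhR+AD+BJ 24.8, 34.01, 34.7 and 36.5 CPM. Outside LowAhR+AD replicate 1 the DNCB libraries lay between 24.8 and 38.5 CPM, within the range of Cont and LowAhR together, and the next highest of the 16 was Cont replicate 2 at 86.4 CPM. The fit called Lgr5 higher in LowAhR+AD than in LowAhR, by 1.59 (SE 0.50, edgeR adjusted p = 0.0434), but without LowAhR+AD replicate 1 the change was 0.60 and did not pass (edgeR adjusted p = 0.297). Against Cont the log2 fold change was 0.46 with that library and -0.54 without it. The call against LowAhR was also lost without Cont replicate 4, LowAhR replicates 2, 3 and 4, LowAhR+AD replicate 1 and LowAhR+AD+BJ replicates 1, 2, 3 and 4, where the lowest value of 0.60 was that without LowAhR+AD replicate 1 and the others were 1.43 or more.

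Padi3 was found in 1 of 4 Cont libraries, with 0, 0, 3.21 and 0 CPM in the Cont libraries and 16.5, 0, 2.99 and 50.1 in the LowAhR libraries. With DNCB it had 67.7, 79.1, 60.9 and 70.9 CPM in LowAhR+AD and 18.2, 62.5, 64.6 and 43.8 CPM in LowAhR+AD+BJ. All LowAhR+AD libraries lay above all LowAhR and Cont libraries, and all 8 DNCB libraries lay above all Cont libraries. Padi3 rose in LowAhR+AD against Cont by 6.41 (SE 1.29, edgeR adjusted p = 0.00219), and no fit that left out 1 library lost it. Without Cont replicate 3, the only Cont library with Padi3 counts, the fitted value is no measure of size. Against LowAhR the log2 fold change was 2.00 (SE 1.00, edgeR adjusted p = 0.200), with groups that did not overlap (exact permutation p = 0.0286). Without LowAhR replicate 4 it was 3.43 and passed (edgeR adjusted p = 0.0469).

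**Figure D2:**
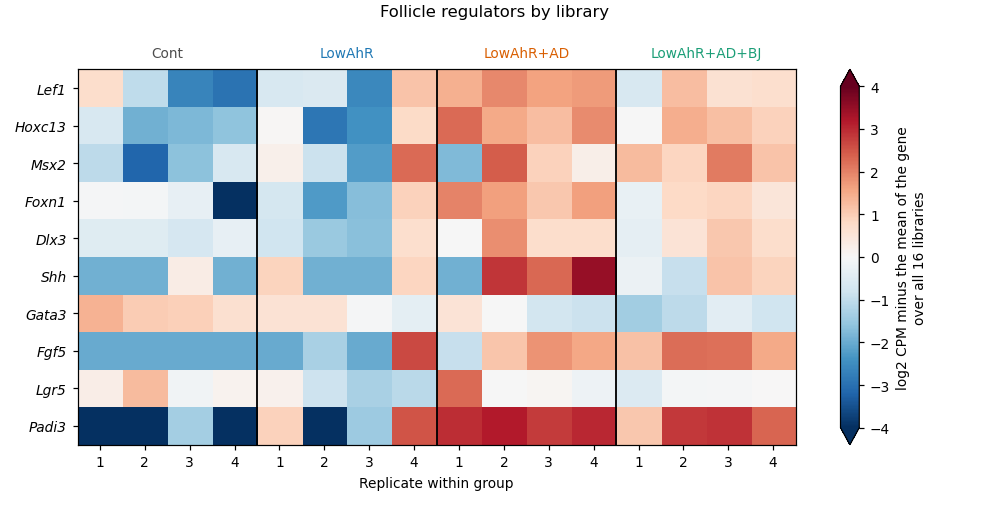
Level of each gene in each library as log2 CPM minus the mean of that gene over all 16 libraries (colour scale from -4 to 4, values beyond it drawn in the end colours), with the 4 replicates of each group side by side. LowAhR replicate 4 stands out from its group in 7 genes, Gata3 is highest in Cont, and Lgr5 is lowest on average in LowAhR.

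Set side by side, the comparisons differed in how many members they called. Of the 10 members, LowAhR+AD against Cont called 6 higher and 1 lower, where 12.3% of all rows were called higher and 9.47% lower. LowAhR+AD against LowAhR called 3 higher and none lower, where 6.42% of all rows were called higher and 6.21% lower. The groups did not overlap in 6 members that were higher and 1 that was lower against Cont (12.9% and 11.8% of all rows), and in 4 that were higher against LowAhR (8.92%). For Fgf5, 1 of these 6, LowAhR+AD replicate 1 had 0.229 CPM. That is below the 0.359 to 0.388 CPM allowed by the Cont libraries with no count. The median log2 fold change of the members was 2.53 against Cont and 1.72 against LowAhR, and over all rows it was 0.045 and 0.038. These 2 comparisons share the LowAhR+AD libraries and are not independent of each other.

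The calls against LowAhR depended on both libraries that stand apart. Without LowAhR replicate 4 the fit called 5 members, Lef1, Hoxc13, Foxn1, Dlx3 and Padi3, all higher, where 7.19% of all rows were called higher. Without both LowAhR replicate 4 and LowAhR+AD replicate 1, a choice made after seeing the data, it called 6 members, the same 5 and Fgf5 (7.24% of all rows called higher). LowAhR replicate 4 was singled out by these members themselves, so the larger count is not independent of that choice. A fit of only the 8 libraries compared called 0 members and 5.49% of all rows. Leaving out LowAhR replicate 2 or 3 left no member called, and leaving out LowAhR+AD+BJ replicate 2 or 4, which are not part of the comparison but share its estimate of spread, left 1. Over the 16 fits that left out 1 library, 7.39% to 13.2% of all rows were called. Against Cont the count fell from 7 to 4 without any 1 of Cont replicates 2, 3 and 4, and it was 9 without LowAhR+AD replicate 1 (23.2% of all rows called). DESeq2 also called 9 members against Cont, the 7 and Msx2 and Shh, of which 8 were higher (13.6% of all rows called higher).

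**Figure D3:**
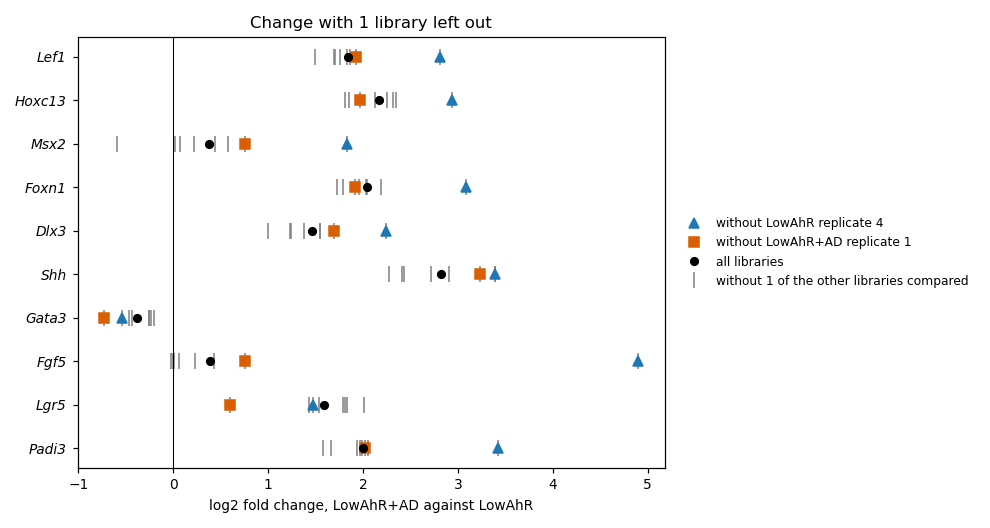
Log2 fold change of each gene in LowAhR+AD against LowAhR with all libraries (black circle) and with 1 of the 8 compared libraries left out (grey ticks, a blue triangle for LowAhR replicate 4 and an orange square for LowAhR+AD replicate 1). The triangle lies to the right of the circle for Lef1, Hoxc13, Msx2, Foxn1, Dlx3, Shh, Fgf5 and Padi3, and the square lies far to the left of it for Lgr5.

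The diet and its bedding, without DNCB, changed no member by the test used. In LowAhR against Cont edgeR called 0 of the 10 members, as it called 0.0% of all rows, while 5 members had an unadjusted p under 0.05 (13.7% of all rows): Gata3 and Lgr5 with lower values, and Msx2, Fgf5 and Padi3 with higher values. DESeq2 called 1 member, Fgf5 (3.29% of all rows), and limma voom called 0. Gata3 was the only member whose libraries did not overlap, all lower (5.63% of all rows). The log2 fold changes were -0.79 for Gata3, -1.13 for Lgr5, 2.20 for Msx2, 4.41 for Padi3, 1.03 for Hoxc13 and 1.63 for Shh, and no size can be given for Fgf5, which had no count in Cont. The higher mean of Padi3 in LowAhR came from replicates 1 and 4 and that of Fgf5 from replicate 4. Without LowAhR replicate 4 the log2 fold changes of Lef1, Foxn1 and Dlx3 were -0.31, -0.89 and -0.77, against 0.66, 0.14 and 0.00576 with it. Without LowAhR replicate 2 Padi3 passed, at 4.83 against 4.41 with it.

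BJIKT given with DNCB did not change a member by the same test. In LowAhR+AD+BJ against LowAhR+AD edgeR, DESeq2 and limma voom each called 0 of 10, and edgeR called 0.0% of all rows. An unadjusted p under 0.05 was found for 2 members (9.46% of all rows), Gata3 with a log2 fold change of -0.71 (SE 0.32, edgeR adjusted p = 0.511) and Lgr5 with -1.10 (SE 0.49, edgeR adjusted p = 0.511). The Lgr5 value rested on LowAhR+AD replicate 1, and without that library it was -0.12. Lef1 and Foxn1 were lower in every LowAhR+AD+BJ library than in every LowAhR+AD library (2 of 10 members, against 2.65% of all rows). Their log2 fold changes were -1.09 (SE 0.79, edgeR adjusted p = 0.676) and -1.10 (SE 0.65, edgeR adjusted p = 0.600), with an exact permutation p of 0.0286 for each before any correction for 10 members. In all, 8 of 10 members had lower values with BJIKT, with a median of -0.75 against -0.00024 over all rows, and Msx2 and Fgf5 had higher values. Those not yet given were -0.80 for Hoxc13, -0.40 for Dlx3, -2.35 for Shh, -0.56 for Padi3, 0.29 for Msx2 and 0.73 for Fgf5.

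LowAhR+AD+BJ replicate 1 was the lowest of its group in 8 members. The second DNCB group, set against the same LowAhR libraries, called only Gata3, lower, of the 10 members (3.12% of all rows called lower and 3.64% higher), and Gata3 was also the only member without overlap (8.19% of all rows were lower without overlap). Hoxc13 and Dlx3 had log2 fold changes of 1.37 (SE 0.59, edgeR adjusted p = 0.177) and 1.06 (SE 0.46, edgeR adjusted p = 0.179). Both passed without LowAhR replicate 4, at 2.14 and 1.84, and the fit then called 3 members with Gata3 (6.96% of all rows). The other 7 members did not pass, with log2 fold changes of 0.75 for Lef1, 0.94 for Foxn1, 0.66 for Msx2, 0.47 for Shh, 1.12 for Fgf5, 0.49 for Lgr5 and 1.44 for Padi3.

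**Figure D4:**
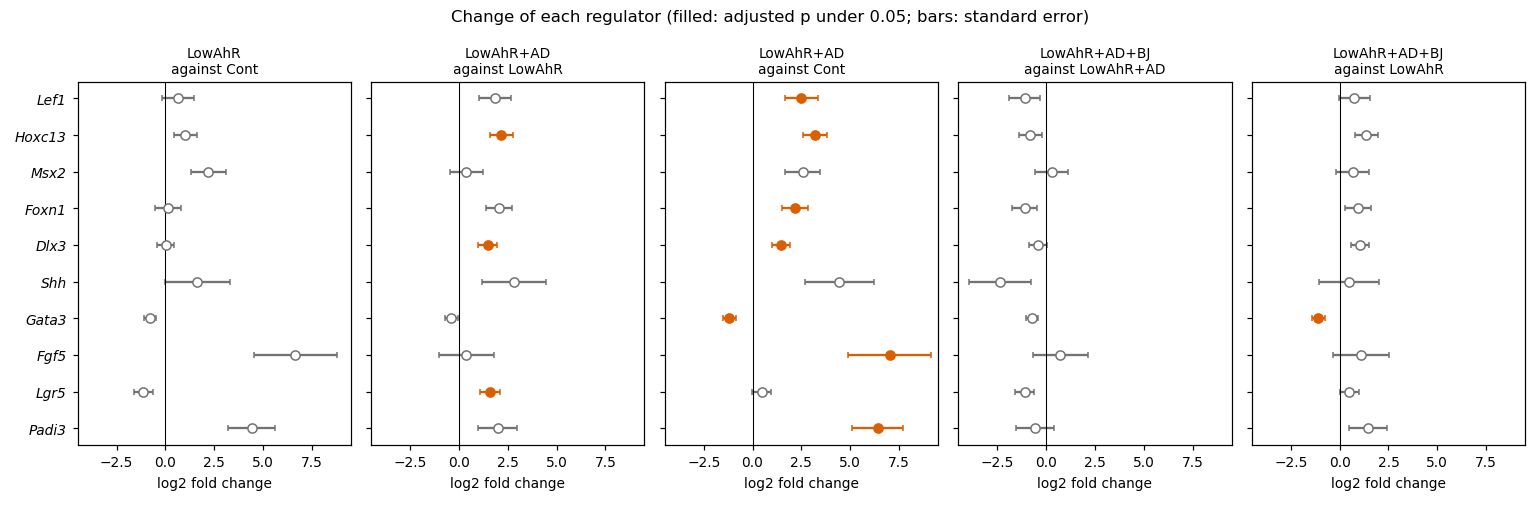
Log2 fold change of each gene in the 5 comparisons, with its standard error as a bar; filled orange points passed in edgeR (threshold 0.05 after adjustment) and open grey points did not. The values of Fgf5 against Cont are fitted against libraries with no count and depend on the prior count, so they give no size.

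Order of the group means was the same in 6 members, Lef1, Hoxc13, Foxn1, Dlx3, Shh and Padi3, with LowAhR+AD highest, then LowAhR+AD+BJ, LowAhR and Cont. For Lef1 and Foxn1, LowAhR+AD did not overlap the next group. For Hoxc13, Dlx3, Shh and Padi3 it did, and in none of the 6 were LowAhR and Cont separate. Msx2 and Fgf5 had the highest mean in LowAhR+AD+BJ, Gata3 was highest in Cont, then in LowAhR, LowAhR+AD and LowAhR+AD+BJ, and Lgr5 had LowAhR lowest.

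The products of the growing follicle were highest in the DNCB groups. The summed level of 14 hair shaft keratin genes, the structural proteins of the shaft, was 19.3, 31.1, 48.2 and 223 CPM in the 4 Cont libraries and 1656, 18.05, 342 and 5997 CPM in LowAhR. It was 2294, 18769, 9973 and 12593 CPM in LowAhR+AD and 2916, 9371, 10750.1 and 7479 CPM in LowAhR+AD+BJ. LowAhR replicate 4, the library highest in 7 members, had the highest sum of its group, and LowAhR+AD replicate 1 and LowAhR+AD+BJ replicate 1 had the lowest of theirs. Of the 13 tested, 12 were higher in LowAhR+AD than in Cont (median 6.75), and 1, Krt32, was higher than in LowAhR (median 2.35). Against LowAhR the count was 3 without LowAhR+AD replicate 1, 7 without LowAhR replicate 4 and 11 without both. Given their sums, these larger counts are not independent of the choice of libraries left out. Krt81, a cortex keratin, went from 25.8 ± 40.6 CPM in Cont to 5969.8 ± 4221 CPM in LowAhR+AD (SD, n = 4 each) (edgeR adjusted p = 0.00597). Krt33a, Krt33b and Krt34, also of the shaft, had log2 fold changes of 6.91, 7.39 and 6.88 against Cont (edgeR adjusted p = 0.00539, 0.00489 and 0.00282).

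Unlike Gata3, the inner root sheath and companion layer keratins moved the same way as those of the shaft. Of 8 tested, 8 were higher in LowAhR+AD than in Cont (median 5.89), and against LowAhR 1, Krt75 of the companion layer, was (median 1.78). Krt25 and Krt71, made in the inner root sheath, had log2 fold changes of 5.26 and 5.61 against Cont (edgeR adjusted p = 0.00711 and 0.00428). Krt26 and Krt27 of the same layer had 6.62 and 6.17 (edgeR adjusted p = 0.00204 and 0.00355). Against LowAhR 2 keratins of this list were higher without LowAhR replicate 4 and 5 without both libraries. LowAhR replicate 4 had the highest sum of this list in its group, so these counts are not independent of that choice either. Of the 7 tested genes beside Padi3 in citrullination and its substrates, 6 were higher than in Cont (Padi1, Padi4, Tchh, Tchhl1, S100a3 and Tgm3) and Padi2 was lower. Tchh, trichohyalin, went from 162 ± 205 CPM in Cont to 4442 ± 3202 CPM in LowAhR+AD (SD, n = 4 each; edgeR adjusted p = 0.00695). Against LowAhR only Tgm3 was higher and Padi2 lower. Without LowAhR replicate 4, again the highest of its group in the sum of these genes, S100a3 and Padi1 were also higher.

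Partners of the members in signalling are given beside the shares over all rows. In LowAhR+AD against LowAhR 6.42% of all rows were called higher and 6.21% lower, and against Cont 12.3% and 9.47%. In the hedgehog pathway, where Shh is the ligand, 1 of 11 tested genes was higher in LowAhR+AD than in LowAhR, Gli1, the target gene most often read for pathway activity, and none was lower (median 0.14). Its log2 fold change was 1.09 (edgeR adjusted p = 0.0411), and against Cont it was 1.32, with Gas1 lower. Smo, the signal transducer, and the co-receptors Boc and Cdon did not pass (0.12, 0.11 and -0.38). Of 15 tested Wnt genes, Ctnnb1 (β-catenin, the partner of Lef1) was higher than in LowAhR by 1.04 (edgeR adjusted p = 0.00318), and against Cont Ctnnb1, Tcf7l1 and Wnt10a were higher and Axin2 lower. Tcf7l2 and the R-spondin receptor Lgr4 did not pass against LowAhR (0.0157 and -0.0131). Of 17 BMP, FGF and related signals, Fgf18 and Tgfb2 were lower than in LowAhR and none was higher, and Bmp4, Bmpr1a, Sostdc1 and Igf1 did not pass (-0.20, 0.39, 0.35 and -0.78).

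Other transcription factors of the hair lineages, none of them members, rose in part. Of 16 tested, 7 were higher in LowAhR+AD than in LowAhR and none was lower (median 0.99): Ovol1, Vdr, Cux1, Trps1, Runx1, Egr2 and Tfap2a. Vdr, the vitamin D receptor needed for hair cycling, had the highest log2 fold change of those named by level, 2.25 (edgeR adjusted p = 0.000848). Cux1 followed at 1.19 and Ovol1 at 1.00, while Prdm1 did not pass (0.38). Egr2 and Trps1 were not called without either of the 2 libraries that stand apart, nor Runx1 without LowAhR+AD replicate 1.

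Stem cell and papilla genes were mixed. Of 10 bulge and germ genes, Sox9, Lhx2, Tbx1 and Cdh3 were higher in LowAhR+AD than in LowAhR and Cd34 and Col17a1 were lower, with no call for Krt15 (-0.56). Sox9, a regulator of outer root sheath and bulge cells, had a log2 fold change of 2.64 (edgeR adjusted p = 0.00391), and Cd34, a bulge surface protein that is also made in vessels and dermis, -1.48 (edgeR adjusted p = 0.00535). The summed level of the bulge and germ list was 3132 CPM in LowAhR+AD replicate 1 and 1421 to 1625 CPM in the other 3 libraries of its group, and without that library Lhx2 was not called while Sox9, Tbx1, Cdh3, Cd34 and Col17a1 still were. Of 12 dermal papilla genes, Crabp1, Vcan and Wif1 were higher (3.29, 1.19 and 2.44) and Igfbp3 was lower (-2.53).

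Genes of other cell types moved in the same comparison. Of 12 cell cycle genes, 7 were higher in LowAhR+AD than in LowAhR, and their summed level was 250.1 to 307 CPM in LowAhR and 498 to 649 CPM in LowAhR+AD. All 8 activated keratinocyte genes were higher, Krt6a and Krt17 among them (5.41 and 2.38), and these keratins are also made in the outer root sheath. All 12 skeletal muscle genes and 7 of 9 adipocyte genes were lower, with sums of 9708 to 23826 CPM in LowAhR and 513 to 4178 CPM in LowAhR+AD for muscle. Without LowAhR replicate 4, 7 of the 12 muscle genes were lower. When library sizes were taken without Rn45s, muscle, adipocyte and hair keratin genes, the same 3 members were called. That setting changes only the scaling of the libraries, and the part of these tissues in the members' changes was not tested. Of the 7 tested melanocyte genes, Dct was higher, 3 of 7 fibroblast and 3 of 10 sebaceous gland genes were lower, and no endothelial or macrophage gene passed. In LowAhR+AD+BJ against LowAhR+AD no gene of any of the 21 lists passed.

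The most abundant genes of these lists, each with its change on the log2 scale from LowAhR to LowAhR+AD, were as follows. In keratinocytes, Krt5, Krt14, Krt6b and Krt16 rose by 1.39, 1.99, 8.41 and 5.66, and Krt10 and Krtdap, made in differentiating layers, did not pass (-1.13 and -1.39). Of the 8 basal and suprabasal genes, Krt5 and Krt14 were called higher and Krt2 and Krt77 lower, with a median of -0.40. Of the cell cycle genes, Mki67 (0.88), Top2a (1.03) and Birc5 (1.4985) rose and Ccna2 (0.44) did not pass. The muscle genes Acta1 (-2.14), Myh4 (-3.16), Tnnt3 (-2.56) and Tnni2 (-2.69) and the adipocyte genes Adipoq (-2.73), Cidec (-2.26), Car3 (-3.87) and Cfd (-1.98) all fell. The collagen genes Col1a1 (-1.48) and Col1a2 (-2.01) and the lipid desaturase gene Scd1 (-2.19) fell, and Col3a1 (-1.17), Dcn (-1.53), Elovl3 (1.03), Mgst1 (-0.93) and Cidea (-0.25) did not pass. Nor did the lymphocyte genes Cd3d (-2.43), Cd2 (-2.002), Thy1 (0.68), Il1rl1 (0.0205), Areg (1.52) and Il7r (-0.55). From the same lymphocyte lists, Cd3e, Cd3g and Rora were called lower in LowAhR+AD than in LowAhR, and none was called higher. No call was made for the macrophage genes Mrc1 (-0.63), C1qa (-0.41), C1qb (-0.45) and C1qc (-0.50), the pigment cell genes Pmel (0.56), Tyrp1 (2.61) and Mitf (0.24) or the endothelial genes Pecam1 (0.68), Cdh5 (0.98), Kdr (-0.17) and Tek (-0.53).

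**Figure D5:**
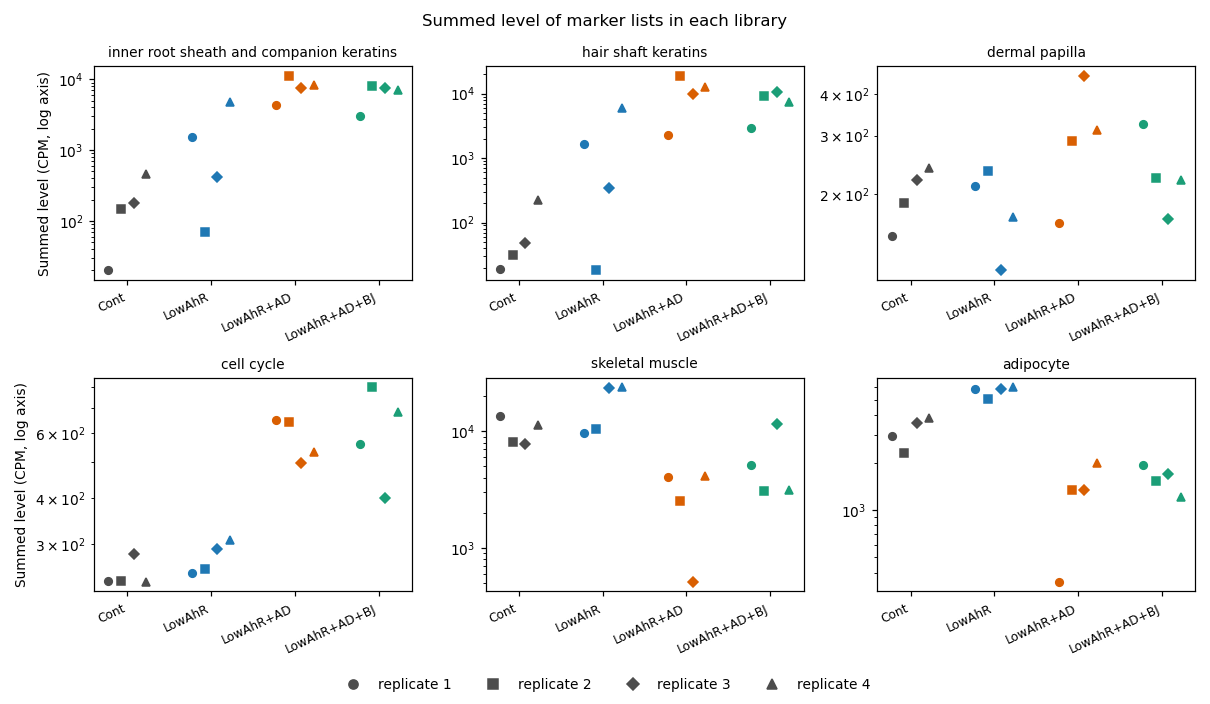
Summed CPM of 6 lists of marker genes in every library (log axis), by group, with a symbol for each replicate number. Hair shaft and inner root sheath keratins are highest in the DNCB groups, and within LowAhR in replicates 1 and 4. The adipocyte sums are higher in all libraries without DNCB than in those with it. Muscle sums are mostly higher without DNCB, but LowAhR+AD+BJ replicate 3, at 11627 CPM, lies within the range of Cont.

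Genes whose levels moved most like each member within the groups were named from the Pearson correlation of log2 CPM deviations from the group means over 16 libraries, as a description with no test. For Padi3 they were Golga7b (r = 0.894, rho = 0.726), S100a7a (r = 0.893, rho = 0.784) and Krtap24-1 (r = 0.891, rho = 0.814), and Krtap24-1 is a keratin-associated protein of the hair shaft. Dlx3 was followed most closely by Efhd1 (r = 0.911, rho = 0.841), Gm19402 (r = 0.872, rho = 0.779) and Krtap3-2 (r = 0.868, rho = 0.709), and Krtap3-2 is another keratin-associated protein. Those for Lef1 were Ephb1 (r = 0.865, rho = 0.797), Gabrp (r = 0.837, rho = 0.876) and Srr (r = 0.808, rho = 0.688). Among those for Hoxc13 were Kcne1 (r = 0.926, rho = 0.855) and Txnrd1 (r = 0.898, rho = 0.874). Foxn1 came with Fzd5 (r = 0.928, rho = 0.768), 6330407A03Rik (r = 0.891, rho = 0.873) and Btbd11 (r = 0.887, rho = 0.856), of which Fzd5 is a Wnt receptor. Shh came with Cbl (r = 0.901, rho = 0.903), Rtkn2 (r = 0.896, rho = 0.763) and Llgl1 (r = 0.895, rho = 0.811), Msx2 with Lztfl1 (r = 0.925, rho = 0.885), Slc20a2 (r = 0.921, rho = 0.806) and Cfap20 (r = 0.879, rho = 0.932), and Fgf5 with Actbl2 (r = 0.937, rho = 0.952), Spink8 (r = 0.920, rho = 0.824) and B3gnt5 (r = 0.914, rho = 0.889). Gata3 was followed by Kif3b (r = 0.928, rho = 0.906), Zmym5 (r = 0.921, rho = 0.865) and Ssfa2 (r = 0.900, rho = 0.900) and Lgr5 by Srpk2 (r = 0.913, rho = 0.912), Atp2b1 (r = 0.874, rho = 0.750) and Nlrc5 (r = 0.872, rho = 0.759), the latter with LowAhR+AD replicate 1 in view. These libraries share their sequencing depth and their content of other tissues.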

How the data were processed

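Skin RNA was read as QuantSeq 3′ libraries on an Illumina instrument. The deposited files hold raw counts per gene, 1 file per library, and the authors' processing notes name Bowtie2, bedtools and build mm10 without versions; the strand setting and the annotation used for counting are not given in the sources used here. No row without a gene name was found. Symbols were read from the files, and groups and replicate numbers from the sample labels.

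Counts were tested with edgeR 4.0.16 (R 4.3.3; TMM factors, filterByExpr set to 10 counts and 15 in total, quasi-likelihood test, all 16 libraries in 1 model, Benjamini-Hochberg over 14854 rows, threshold 0.05). Levels are CPM, log2 CPM had a prior count of 2, and exact permutation tests were two-sided. The test was checked on simulated data. Other settings tried were DESeq2 1.42.0, RLE or upper-quartile factors, limma 3.58.1 voom, no filter, at least 10 counts in every library, only the 8 libraries compared, the replicate block, other library sizes and each library left out. Figures used matplotlib 3.10.9.

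The members and gene lists were chosen with earlier results of these data known. Every member is named in every comparison, as are the 4 tested genes of a list with the highest mean CPM and the 3 genes most like each member, of which 1 for Hoxc13 is not reported here. Genes named as called in a count, Gli1, Krt32 and Krt75 were added after their values were seen. Promoters and gene positions came from RefSeq and GENCODE tables of GRCm38.p6. Over 24 same-number pairs the correlation of deviations was -0.055 to 0.17 (median -0.0074), with 3 over 0.1. Over 72 pairs with different numbers it was -0.146 to 0.140 (median -0.0094), with 2 over 0.1. These values cannot decide whether equal numbers share a litter or cage, which the labels do not say.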

Additional observations from a re-analysis of the deposited data

Results flagged for a closer look

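Among the members, 5 of 39 groups of 4 libraries held 1 library far from the other 3 by Dixon's test on log2 CPM (the gap to the nearest library over the range of the group), where chance flags about 1 in 20 groups, or 1.95 of 39. Foxn1 was low in Cont replicate 4, with a ratio of 0.927 and 0.599 CPM. Shh was found in Cont replicate 3 only, with a ratio of 1 and 0.740 CPM, and Padi3 likewise in Cont replicate 3 only, with a ratio of 1 and 3.21 CPM. With 3 libraries at 0 the ratio is 1 whatever the level of the fourth, so these 2 carry no weight, and 3 remain of 37 groups with fewer zeros, where chance gives 1.85. Fgf5 was high in LowAhR replicate 4, with a ratio of 0.848 and 4.89 CPM, and this library was highest of its group in 6 other members. Lgr5 was high in LowAhR+AD replicate 1, with a ratio of 0.886 and 173.8 CPM, and this library was also the one in which 38.2% of genes expected at 20 to 40 counts had none. The causes were not tested.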

How the results depend on the processing

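The count of called members in LowAhR+AD+BJ against LowAhR+AD was 0 under every setting. In LowAhR against Cont it was 0, and 1 with DESeq2 and 0 to 1 with 1 library left out. In LowAhR+AD against LowAhR it was 3, and 5 with limma voom, 0 with only the 8 libraries compared, 0 to 5 with 1 library left out and 6 without both LowAhR replicate 4 and LowAhR+AD replicate 1, an alternative chosen after seeing the data. In LowAhR+AD against Cont it was 7, and 3 with at least 10 counts in every library, which kept only 4 members in the test, and 9 with DESeq2, which added Msx2 and Shh, and 4 to 9 with 1 library left out. In LowAhR+AD+BJ against LowAhR it was 1, and 0 with the replicate block, 0 to 3 with 1 library left out and 4 without both libraries.

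Values near 0 changed sign. In LowAhR against Cont, Dlx3 was 0.00576, and -0.00429 with RLE and -0.0104 with upper-quartile factors, -0.00516 with DESeq2, -0.30 with voom, -0.00243 with the 8 libraries, -0.13 with the replicate block, -0.77 to 0.25 with 1 library left out and -0.77 without both. Foxn1 was -0.0527 with the block, -0.89 to 0.46 and -0.90 in the last 2 of these, and Lef1 -0.31 to 2.01 and -0.30. In LowAhR+AD against LowAhR, leaving out 1 library gave -0.59 to 1.83 for Msx2 and -0.0246 to 4.90 for Fgf5, and without both libraries they were 2.20 and 5.23. In LowAhR+AD against Cont, Lgr5 was -0.54 to 0.85, and -0.54 without both. In LowAhR+AD+BJ against LowAhR+AD, Msx2 was -0.10 to 1.26, and -0.10 without both, and Dlx3 was -0.64 to 0.0659, and -0.64 without both. Apart from LowAhR+AD replicate 1 in Lgr5, the causes were not tested.

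The block on replicate number also lost the calls of Lef1 and Foxn1 against Cont. Over all rows, DESeq2 called 509 in LowAhR against Cont, 1729 against 1005 in LowAhR+AD+BJ against LowAhR and 19 in LowAhR+AD+BJ against LowAhR+AD. The 8 libraries alone called 250 in the first and 765 against 1876 in LowAhR+AD against LowAhR, and at least 10 counts in every library gave 45 in the first. Leaving out 1 library gave 0 to 475 in the first (highest without LowAhR+AD replicate 1), 1128 to 2015 in LowAhR+AD against LowAhR and 414 to 1716 in LowAhR+AD+BJ against LowAhR. Shh and Fgf5 had at most 105 and 46 counts in any library, and a library with none allows an expected level of up to 3 counts at this depth.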
